A study of Oryza sativa with 20 samples.

Results

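The lamina joint of the rice leaf was compared with the leaf blade at a single developmental stage, S3, by small RNA sequencing. The members are the 2 lamina joint libraries and the 2 blade libraries whose titles give S3, which makes 4 of the 20 libraries of the series. All 685 tags listed in the count files were considered, and 299 of them passed the filter on low counts and were tested. The series covers both tissues of the first complete leaf of Oryza sativa seedlings at 5 stages, with 2 libraries for each combination of tissue and stage. Seedlings grew in water under a light and dark cycle, and sampling followed germination by 4, 5, 6, 7 and 9 days. Day and stage are not tied to each other in the labels, which name no cultivar, give no treatment and do not say whether the replicates came from separate sets of plants. The p-values therefore measure only how far these libraries differ from each other, and part of that may be technical.

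The lamina joint is the hinge between the leaf sheath and the blade, and unequal growth of its sides bends the blade away from the stem and sets the leaf angle. The blade is the flat photosynthetic part of the leaf. MicroRNAs are short RNAs loaded into Argonaute proteins, where they guide the cleavage or repression of transcripts with a matching site, and in plants many conserved families act on transcription factors that pattern leaves. The count files number their tags and pair them with neither miRNA names nor sequences, so a tag is described here by its number, level, tissue and course, and no family or target is named. Few IDs are printed for that reason, and other tags are given by their order of p-value. Tissue identity was not checked against marker genes here. In whole tissue, fewer cells of a type and less RNA per cell cannot be told apart.

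The lamina joint S3 libraries held 417594 and 691284 counts, and the blade S3 libraries 483143 and 632538 counts. They were alike in composition. The most abundant tag took 23.8% (exact 95% binomial interval 23.7 to 23.9) and 19.1% (19.1 to 19.2) of the counts in the lamina joint, and 22.3% (22.2 to 22.4) and 19.1% (19.0 to 19.2) in the blade. These intervals describe counting error alone, because reads copied by PCR do not stand for separate molecules. The libraries detected 361 and 375 tags in the lamina joint, against 372 and 374 tags in the blade. Across the 299 tags, the median absolute log2 difference was 0.48 between the lamina joint replicates and 0.46 between the blade replicates, and it lay between 0.57 and 0.64 for the 4 pairs made of 1 library from each tissue. The tissues thus stood only slightly farther apart than replicates of 1 tissue. The replicates differed by more than the sampling noise of independent reads, with a chi-square per degree of freedom of 79.5 in the lamina joint and 102 in the blade. Reads copied by PCR can raise that value too. No library was treated as a second deposit of another.

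The question put to the S3 libraries was which small RNAs differ between hinge and blade at this stage. Of the tags in the lamina joint, 7 were below their blade level and 0 above it, which is 2.34% and 0% of the 299 tags tested (edgeR quasi-likelihood test, Benjamini-Hochberg adjusted p under 0.05). At an unadjusted p under 0.05 there were 60 tags (20.1%), with 27 tags higher (9.03%) and 33 lower (11%). DESeq2 called 8 higher and 8 lower, and limma with voom called 3 higher and 7 lower. With DESeq2 size factors or upper quartile factors 1 tag was higher and 6 were lower, and with total counts 2 were higher and 5 lower. Both lamina joint libraries lay above both blade libraries for 68 tags (22.7%) and below both for 83 tags (27.8%). The fitted difference exceeded 1 on the log2 scale, which is a doubling, for 34 higher tags (11.4%) and 54 lower ones (18.1%). The middle of all tags lay near 0, with a median fitted difference of -0.07 that ranged from -0.12 to 0.02 over the 5 ways of scaling the libraries.

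**Figure D1:**
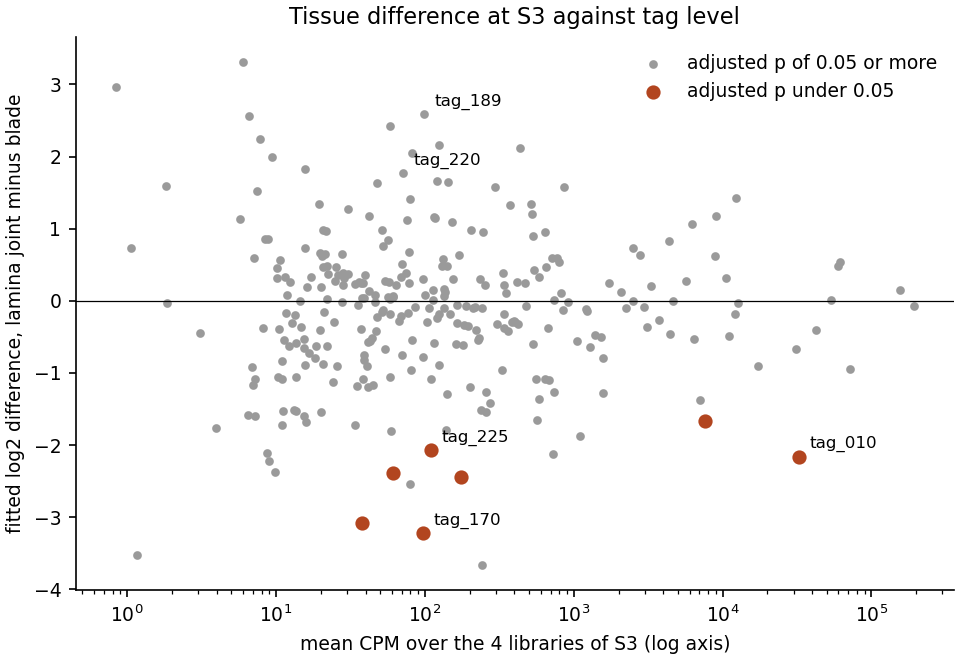
Fitted log2 difference, lamina joint minus blade, of each tested tag with a count at S3, against its mean normalised CPM over the 4 libraries of S3 on a log axis. The 7 larger points passed an adjusted p of 0.05, and all 7 lie below 0, at low and at high levels alike.

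Tag_170 had the smallest p-value. Levels are given as CPM, the counts scaled to a common library size after TMM normalisation. Tag_170 had 17.9 and 19.0 CPM in the lamina joint, from 9 and 14 counts, against 221 and 129 CPM in the blade, from 115 and 83 counts. The groups did not overlap, and the blade replicates were farther apart than the lamina joint ones. The tag was 9.34-fold lower in the lamina joint, with a fitted difference of -3.22 ± 0.49 (log2, SE) and an edgeR adjusted p of 0.00319, or 0.0630 and 0.144 without the first and the second lamina joint S3 library. Over the stages S1 to S5 its mean in the lamina joint was 22.4, 8.87, 18.4, 147 and 121 CPM, and in the blade 16.4, 33.7, 175, 426 and 315 CPM. At S3 the blade had therefore begun its increase while the lamina joint was still near its S1 level. The tag rose between S1 and S5 in the lamina joint (edgeR adjusted p = 0.00103) and in the blade (edgeR adjusted p = 1.98e-05), contrasts that use no S3 library.

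Tag_010 was the only one of the 10 most abundant tags at S3 that passed the test. It had 12004 and 11802 CPM in the lamina joint, against 53267 and 53090.2 CPM in the blade. Its replicates were close in both tissues, with means of 11903 ± 143 CPM in the lamina joint and 53179 ± 125 CPM in the blade (SD, n = 2 each). It was 4.47-fold lower in the lamina joint, the fitted value being -2.16 ± 0.41 (log2, SE; edgeR adjusted p = 0.0158, or 0.127 and 0.156 without the first and the second lamina joint S3 library). The blade means stayed between 51067 and 84159 CPM at all 5 stages, while the lamina joint means were 10313, 3909.7, 11903, 30444 and 42315 CPM from S1 to S5. Blade replicates were far apart at S1, with 82411 and 53157 CPM, and at S2, with 72682 and 29452 CPM. At S3 the lamina joint libraries lay within the range of its S1 libraries, 7980 and 12647 CPM. From S1 to S5 the tag rose in the lamina joint (edgeR adjusted p = 0.00103) and did not pass in the blade (edgeR adjusted p = 0.519).

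The other 5 called tags covered a wide range of levels. The next tag in order of p-value had 45.8 and 62.3 CPM in the lamina joint, against 275 and 318 CPM in the blade (fitted difference -2.45 ± 0.49, log2, SE; edgeR adjusted p = 0.0180). Its lamina joint means of 8.52 and 8.63 CPM at S1 and S2 were followed by 54.1 CPM at S3, 159 CPM at S4 and 294 CPM at S5. Its lamina joint mean lay below its blade mean at each of these stages. The fourth tag had few counts in the lamina joint, 2 and 8, or 3.98 and 10.8 CPM, against 44 and 33 counts, or 84.5 and 51.2 CPM, in the blade. Its fitted difference was -3.08 ± 0.66 (log2, SE), with an edgeR adjusted p of 0.0259, and rests on few lamina joint counts. Here the blade level moved over the stages, with means of 142, 195, 67.9, 32.1 and 35.9 CPM. The lamina joint means lay between 7.41 and 18.5 CPM, from 2 to 10 counts in each library, too few to show a steady level.

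The fifth tag was abundant, with 3343 and 3951 CPM in the lamina joint, against 11923 and 11249 CPM in the blade (fitted difference -1.67 ± 0.37, log2, SE; edgeR adjusted p = 0.0259). The tissues were close at S1, with 21955 ± 1314 CPM in the lamina joint and 20181 ± 1703 CPM in the blade (SD, n = 2 each). At S2 the lamina joint mean was 4225 CPM and the blade mean 21299.7 CPM, and at S5 the means were 4856 CPM in the lamina joint and 5151 CPM in the blade. Its gap at S3 thus lay between a steep early decrease in the lamina joint and a slower one in the blade. The sixth tag had 25.9 and 13.5 CPM in the lamina joint, from 13 and 10 counts, against 94.1 and 110.2 CPM in the blade (fitted difference -2.39 ± 0.54, log2, SE; edgeR adjusted p = 0.0259). At every stage its lamina joint mean lay below its blade mean, from only 2 and 0 lamina joint counts at S1 and 1 and 3 at S2. The call of this sixth tag was lost with total counts (edgeR adjusted p = 0.0573) and with upper quartile factors (0.0579). The seventh, tag_225, had 33.8 and 50.1 CPM in the lamina joint, against 198 and 158 CPM in the blade (fitted difference -2.07 ± 0.50, log2, SE; edgeR adjusted p = 0.0427). Its call was lost with total counts (edgeR adjusted p = 0.0532), the replicate block (0.0545), DESeq2 size factors (0.0578) and TMM without the most abundant tag (0.0617). For none of the 7 tags did the S3 libraries of the tissues overlap, which a small p-value from these libraries makes likely. Over all tested tags, both lamina joint libraries lay below both blade libraries for 27.8% and above both for 22.7%.

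**Figure D2:**
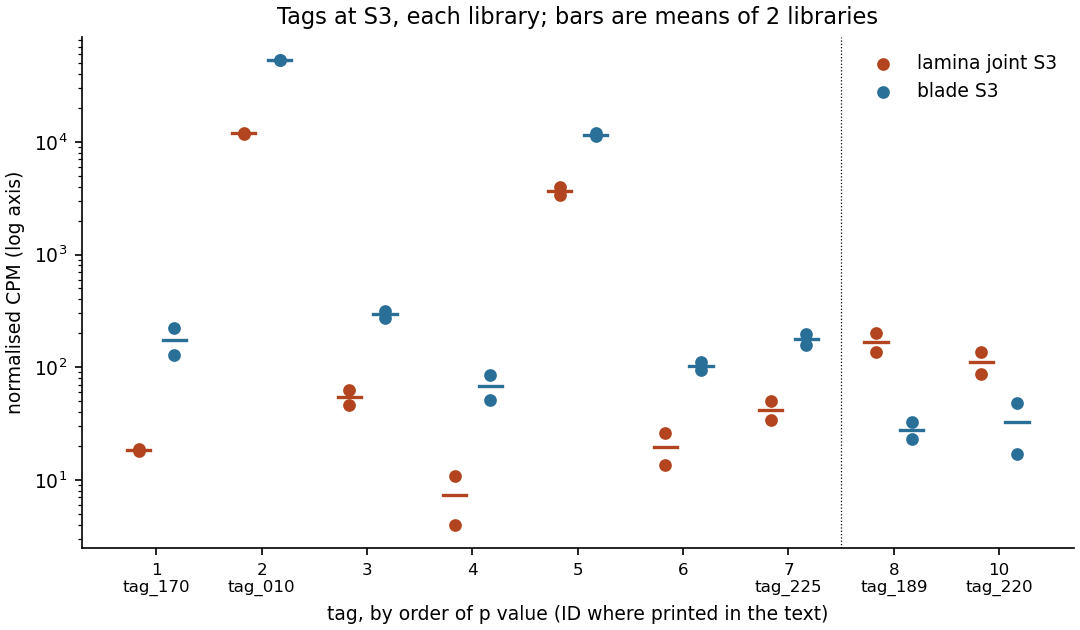
Normalised CPM on a log axis in each S3 library for the 7 tags that passed the test and, right of the dotted line, the 2 higher tags with the smallest p-values, which did not pass. Lamina joint libraries stand left of blade libraries, bars are means of 2 libraries, and the tissues overlap for none of the 9 tags. Among all tested tags, both lamina joint libraries lay below both blade libraries for 27.8% and above both for 22.7%.

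These calls changed when single libraries were left out. Each such refit also repeated the filter, the scaling and the adjustment, for example over 310 tags without the first lamina joint S1 library. Which of these changes moved a call was not tested. Because the S3 libraries of the tissues did not overlap for the 7 tags, a refit could hardly reverse their direction. Without the first blade S3 or second lamina joint S4 library, the called tags were partly others, some of them higher in the lamina joint. In order of p-value, the 7 tags lost their call without 2, 2, 5, 9, 16, 14 and 17 of the 20 libraries, each left out singly. Tag_225, the last of them, passed only where that library was either of lamina joint S1 or the first of lamina joint S5 (edgeR adjusted p up to 0.264 without the others). The direction of the 7 differences was the same in every refit, but the count of calls, 7 with all libraries, was 1 without the first (a tag not among the 7) and 0 without the second lamina joint S3 library, fits in which the lone library was assumed to vary like the other groups. It was 4 without the second blade S3 library, 15 and 13 without the first and the second lamina joint S1 library, 2 without either of lamina joint S2, 4 without the first of lamina joint S4 or either of blade S1, and 3 without any of blade S4 or S5.

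No tag passed as higher in the lamina joint, and the 2 with the smallest p-values are given as values. Tag_189 had 135 and 202 CPM in the lamina joint, against 32.7 and 23.3 CPM in the blade, and the fit gave 2.59 ± 0.68 (log2, SE; edgeR adjusted p = 0.0699). Over 32 refits its adjusted p lay between 0.00246 and 0.313, and it was under 0.05 in 12 of them. The tag was abundant early and nearly absent late, with lamina joint means of 787, 1254, 169, 7.89 and 5.56 CPM and blade means of 468, 187, 28.0, 0.653 and 5.82 CPM from S1 to S5. Tag_220 had 135 and 86.7 CPM in the lamina joint, against 48.0 and 17.1 CPM in the blade (fitted difference 1.77 ± 0.49, log2, SE; edgeR adjusted p = 0.0828, between 0.00734 and 0.392 over 32 refits). Its lamina joint mean was above its blade mean at each of the 5 stages. The tag with the most negative fitted difference at S3 did not pass either. It had 43.8 and 27.1 CPM in the lamina joint, against 672 and 227 CPM in the blade, and its value of -3.67 ± 0.99 (log2, SE; edgeR adjusted p = 0.0781) had a wide error, with blade replicates far apart.

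The 10 tags with the highest mean CPM at S3 held 77.2% of the counts in the lamina joint and 79.2% in the blade. Of these 10, 1 was lower (tag_010) and 0 were higher, against 2.34% and 0% of all tested tags, and the other fitted differences lay between -0.94 and 0.53 (log2). The most abundant tag of the series had 197816 and 179284 CPM in the lamina joint, against 207081 and 187826 CPM in the blade. Its difference of -0.07 ± 0.35 (log2, SE) had a 95% interval from -0.82 to 0.69. The tag next in abundance had 145027 and 185534 CPM in the lamina joint, against 134602 and 162848 CPM in the blade, with an interval from -0.30 to 0.60. For neither tag do these intervals hold a difference of 2-fold or more.

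Precision followed the level of a tag. By mean CPM over all 20 libraries, 16 tags were at 10000 or over, 32 between 1000 and 10000, 100 between 100 and 1000, 139 between 10 and 100, and 12 under 10. The median standard error of the S3 difference was 0.37, 0.44, 0.46, 0.63 and 1.28 (log2) in these classes. The calls fell in 3 of them, with 2 among the 16 tags at 10000 or over (12.5%), 2 among the 100 (2.00%) and 3 among the 139 (2.16%), against 2.34% of all tested tags. A difference of a given size thus stood on a larger error in low tags.

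The tissue difference at S3 was then set beside that of the other stages. Over S1, S2, S4 and S5 together, 29 tags were higher in the lamina joint (9.70% of 299) and 39 were lower (13.0%), by a contrast that uses no S3 library. All 7 tags lower at S3 were among the 39, which is 100% of the S3 list and 17.9% of the other. Taken by single stage, 4 of the 7 were also called lower at S1, 7 at S2, 1 at S4 and 0 at S5. Over all 299 tags, 14, 37, 1 and 1 were called lower at these stages. The fitted difference was negative for 5 of the 7 at S1, 7 at S2, 6 at S4 and 7 at S5. Among the 39, the median fitted difference at S3 was -1.10 (log2), against -0.07 for all tested tags, and both lamina joint libraries lay below both blade libraries for 31, against 27.8% of all tested tags. Among the 29 higher tags, 0 passed at S3, their median at S3 was 0.86, and both lamina joint libraries lay above both blade libraries for 19, against 22.7% of all tested tags. At an unadjusted p under 0.05, 13 of the 29 were higher and 0 lower at S3, against 9.03% and 11% of all tested tags. At S3, 38 of the 39 fitted differences were negative and 25 of the 29 were positive. Over all 299 tested tags, 161 were negative and 134 positive at S3. Under the 4 other scalings, 36 to 38 of the 39 were negative and 25 or 26 of the 29 positive. Tags called higher in the lamina joint at a single stage did not all share this direction. At S3 the fitted difference was positive for 8 of the 9 called at S1 and 9 of the 9 called at S2 (3.01% of 299 each), but for 1 of the 2 called at S4 (0.669%) and 6 of the 11 called at S5 (3.68%), whose median at S3 was 0.15.

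Tests of the tissue difference at S3 against that at other stages called few tags. With 2 libraries per group their errors were wide, so few calls do not show that the stages were alike. For tag_010 the difference at S3 minus that at S2 was 1.55 ± 0.56 (log2, SE) and did not pass (edgeR adjusted p = 0.331). The tissue difference at S3 departed from its mean over the other 4 stages for 0 of 299 tags (0%) by edgeR, with 19 at an unadjusted p under 0.05 (6.35%), while DESeq2 called 2 and limma with voom 1. Against S2 it departed for 0 tags (0%) by edgeR, with 26 at an unadjusted p under 0.05 (8.7%), and for 0 by DESeq2 and by limma with voom. Against S4 it departed for 1 tag (0.334%) by edgeR, tag_225, with 18 at an unadjusted p under 0.05 (6.02%), while DESeq2 called 3 and limma with voom 1. At S3 tag_225 was lower in the lamina joint, with the values given above. At S4 it had 28.0 and 37.7 CPM in the lamina joint, from 15 and 14 counts, against 11.7 and 4.33 CPM in the blade, from 9 and 2 counts. The lamina joint libraries thus lay below the blade libraries at S3 and above them at S4, and the difference at S3 minus that at S4 was -3.97 ± 0.78 (log2, SE; edgeR adjusted p = 0.0465). From S1 to S5 its blade means were 47.3, 76.5, 178, 8.04 and 92.8 CPM. Its lamina joint means were 11.4, 3.21, 42.0, 32.9 and 76.5 CPM. S4 was thus the only stage where the lamina joint mean lay above the blade mean, and the difference from S4 does not mark S3 as unlike the others. With a single library left out it passed only where that was the second of lamina joint S1 or either of lamina joint S2, and did not for the other 17 of 20 (edgeR adjusted p up to 0.577). Over these 20 refits the value lay between -4.94 and -3.44, and the edgeR adjusted p was 0.0837 with the replicate block and 0.0772 with DESeq2 size factors.

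The tag closest to a departure of S3 from the other stages, chosen after its values were seen, had the opposite sign early and at S3. It had 1242 and 1337 CPM in the lamina joint S3 libraries, against 346 and 519 CPM in the blade S3 libraries. At S1 its means were 186 ± 96.2 CPM in the lamina joint and 1479 ± 163 CPM in the blade (SD, n = 2 each). Its lamina joint means from S1 to S5 were 186, 813, 1289.8, 33.7 and 33.0 CPM, with the highest at S3, and its blade means were 1479, 1366, 432, 28.2 and 32.5 CPM. The difference at S3 minus the mean of the other stages was 2.43 ± 0.51 (log2, SE) and did not pass (edgeR adjusted p = 0.0861).

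**Figure D3:**
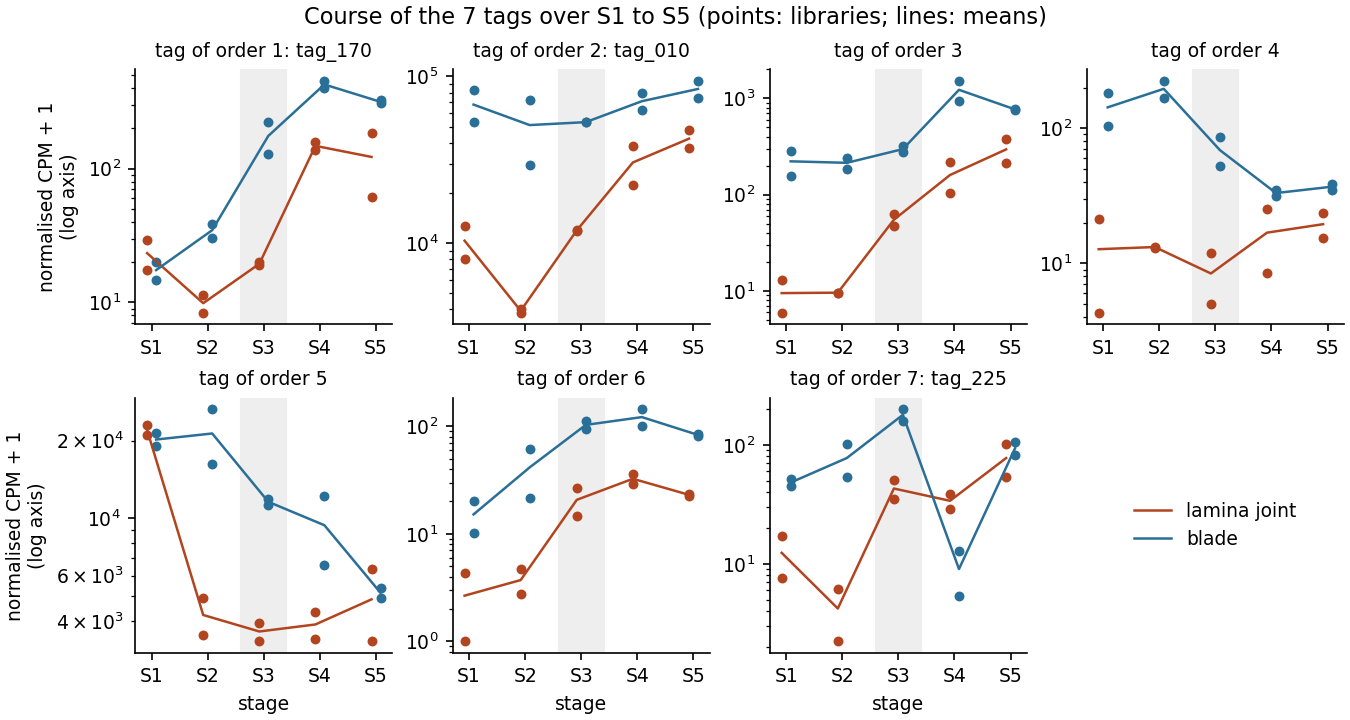
Normalised CPM plus 1, on a log axis, of the 7 tags lower in the lamina joint at S3, over stages S1 to S5. Points are libraries, lines join the means of 2 libraries, and panels follow the order of p-value at S3. The grey band marks S3, where every lamina joint point lies below every blade point, as for 27.8% of all tested tags.

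The S3 difference was also described for tags that change with development. In the blade, 71 tags were higher at S5 than at S1 (23.7% of 299) and 75 were lower (25.1%), again without an S3 library. The tags that rose in the blade were mostly lower in the lamina joint at S3. Their median fitted difference at S3 was -0.64 (log2), 59 of the 71 were negative, 3 passed the test as lower, and both lamina joint libraries lay below both blade libraries for 39 and above both for 0. Over all 299 tags, 161 were negative, 2.34% passed as lower, 27.8% lay below both and 22.7% above both, so the 3 calls (4.23%) were near the share over all tags. The tags that fell in the blade leaned the other way, with a median of 0.36, 53 of 75 positive, and lamina joint libraries above both blade libraries for 37 and below both for 10. Of these 75, 0 passed as higher at S3 and 2 passed as lower (2.67%), as many as the share over all tags gives. Lists taken from the lamina joint gave like medians, at -0.73 for the 72 tags that rose there from S1 to S5 (24.1%) and 0.53 for the 60 that fell (20.1%). As lower at S3, 5 of the 72 (6.94%) and 1 of the 60 (1.67%) passed, against 2.34% of all tested tags. As higher, 0 passed in either list. At S3 the lamina joint therefore had, on the median, less of the late tags and more of the early tags than the blade. The directions of these 4 medians were the same under all 5 scalings.

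**Figure D4:**
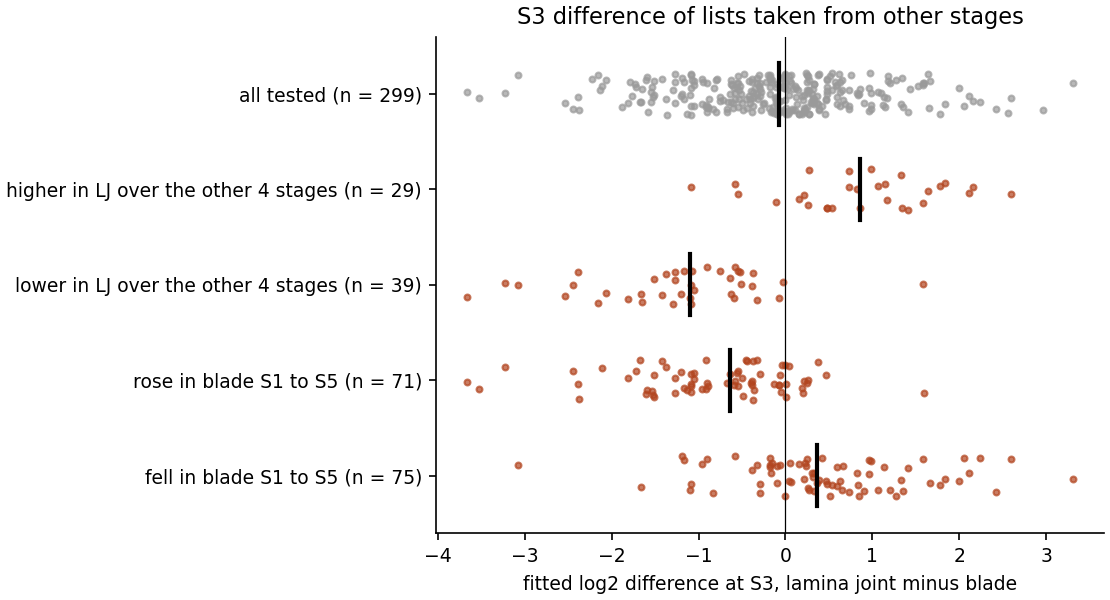
Fitted log2 difference at S3, lamina joint (LJ) minus blade, for all tested tags and for 4 lists whose contrasts use no S3 library. Points are tags, spread vertically at random, and black bars are medians, at -0.07 for all tags, 0.86 and -1.10 for tags higher and lower in the lamina joint at the other stages, and -0.64 and 0.36 for tags that rose and fell in the blade from S1 to S5.

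The group means placed lamina joint S3 nearest to an earlier blade. The median absolute log2 difference over the 299 tags from lamina joint S3 was 0.36 to blade S2, 0.45 to blade S1, 0.52 to blade S3, 0.78 to blade S4 and 1.16 to blade S5. Within its own tissue it was 0.53 to lamina joint S2 and 0.65 to lamina joint S4. Blade S3 was nearest to blade S2, at 0.39, and was farther from lamina joint S1 (1.00) and S2 (0.76) than from lamina joint S4 (0.59). These distances are descriptions across tags, which share libraries and scaling and are not independent replicates. Between single replicate libraries, not means, the measure was 0.48 in lamina joint S3, 0.46 in blade S3, 0.52 in blade S2 and 0.42 in blade S1. Whether the nearest groups differed in distance beyond this spread was not tested.

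**Figure D5:**
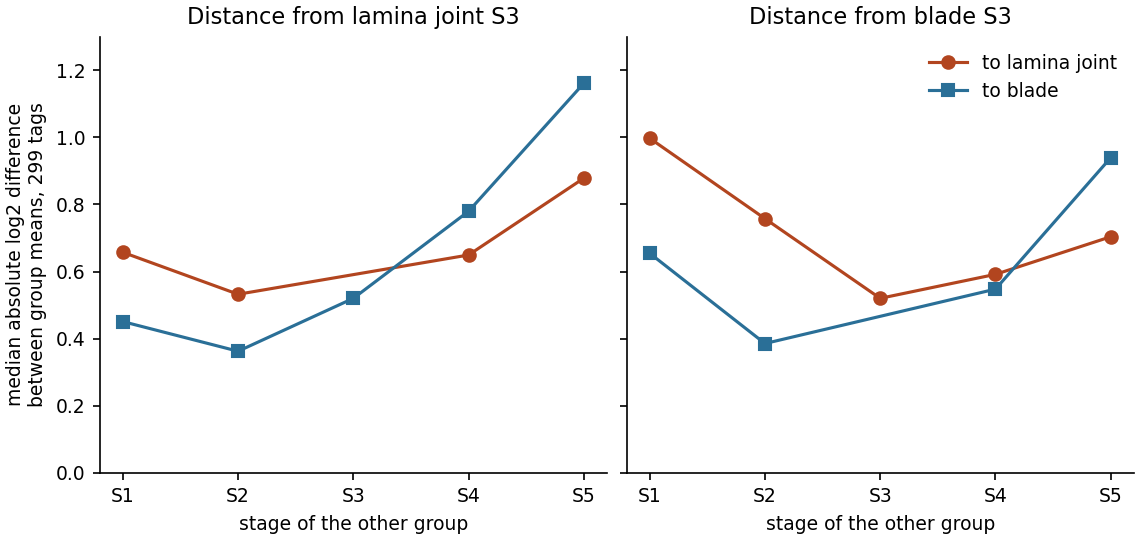
Median absolute log2 difference over 299 tags between the mean of lamina joint S3 (left) or blade S3 (right) and the mean of each other group, by stage of that group. Circles are lamina joint groups and squares blade groups, and the lowest points are blade S2 in both panels, at 0.36 and 0.39.

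The 386 tags that were not tested carried 0.0400% of the lamina joint S3 counts and 0.0411% of the blade S3 counts. Of them, 260 had no count at S3, 80 had counts in both tissues, 17 in the lamina joint only and 29 in the blade only. Among all 685 tags, the 18 seen in the lamina joint only had at most 3 counts over its 2 libraries, and the 30 seen in the blade only had at most 4. At this depth no tag was clearly present in 1 tissue and missing from the other at S3.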

How the data were processed

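Per the labels, total RNA was extracted with TRIzol and a sequencing company made the small RNA libraries. The authors deposited whole-number counts per tag, unnormalised, in a file for each library. The submitters' processing notes list the genome build IRGSP-1.0 and the tool CASAVA, without saying what each was used for. How reads were aligned, annotated and counted, and how reads matching several miRNAs were treated, is not given in the sources used here. Near-identical miRNAs can share or divide reads.

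Groups and replicate numbers came from the titles. Total counts lay between 194799 and 1169330 per library. The quasi-likelihood test of edgeR 4.0.16 (R 4.3.3) was fitted to all 20 libraries, with a mean for each of 10 groups and 10 residual degrees of freedom. TMM scaled the libraries, and filterByExpr (minimum count 10, minimum total 15) left 299 tags. Tests were two-sided, adjusted over the 299 tags, and in each refit over the tags that its own filter left. Standard errors came from the F statistics. Log2 distances used a prior count of 2. The fit was tested on simulated data. Alternatives were other scalings and filters, DESeq2 1.42.0, robust estimation, voom in limma 3.58.1, a replicate block, the S3 libraries alone (with S2 or S4 for differences between stages), each library left out in turn, and, chosen after the data were seen, both lamina joint S1 libraries left out. Figures used matplotlib 3.10.9 in Python 3.11.15.

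The comparison, lists and tests were chosen with earlier results of these data known. The rule named the 2 tags per direction with the smallest p-values, and gave the other called tags without an ID, except tag_225, named as the tag that passed the test of S3 against S4. Lists of miRNA families could not be used without names.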

Additional observations from a re-analysis of the deposited data

Results flagged for a closer look

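Tag_225 is given here because its tissue difference at S3 departed from that at S4 by a direct test of the difference, the only tag of 299 to do so by edgeR. The difference at S3 minus that at S4 was -3.97 (log2; edgeR adjusted p = 0.0465), with the lamina joint below the blade at S3 and above it at S4. At S1, S2 and S5 the lamina joint mean was below the blade mean as well, so S4 was the stage apart. The blade S4 counts were 9 and 2, and all 8 libraries of both stages kept the tissues apart. The call was lost in 17 of the 20 refits that left out a single library, with the replicate block (edgeR adjusted p = 0.0837) and with DESeq2 size factors (0.0772).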

How the results depend on the processing

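The 7 called tags stayed lower and the 2 named higher tags stayed higher in all 32 refits. Their S3 libraries did not overlap between the tissues, so a refit could hardly reverse these directions. All 7 kept their call in 7 of the 12 refits other than those leaving out a single library. Tag_170 and tag_010 lost their calls only without a lamina joint S3 library. The number of tags tested, 299 in the main fit, was not the same in all refits. It was 484 with no filter, 249 with the S3 libraries alone and 294 without the lamina joint S1 pair. With the 8 libraries of S3 and S2 it was 254, and with those of S3 and S4 it was 273. It also changed with single libraries left out. The count of 7 was 20 with no filter, 16 with DESeq2, 12 with the 4 libraries of S3 alone, 14 without the lamina joint S1 pair, and 0 to 15 with single libraries left out. The 0 higher tags became 1 with DESeq2 size factors, upper quartile factors or the S3 libraries alone, 2 with total counts or without the lamina joint S1 pair, 3 with limma-voom, 6 with no filter, 8 with DESeq2, and 0 to 4 with single libraries left out. The 7 lower tags became 14 with no filter, 11 with the S3 libraries alone, 12 without that pair, and 0 to 11 with single libraries left out. Departures of S3 from the other stages, 0 tags, were 1 with total counts or limma-voom, 2 with DESeq2, 4 with no filter, and 0 to 2 with single libraries left out. Departures from S2, 0 tags, were 1 with no filter, 3 without that pair, and 0 to 4 with single libraries left out. Departures from S4, 1 tag, were 0 with DESeq2 size factors or the replicate block, 2 with TMM without the most abundant tag, 3 with DESeq2, 4 with the 8 libraries of both stages, 10 with no filter, and 0 to 2 with single libraries left out. The causes of these changes were not tested. With the replicate block 6 tags were called at S3, 0 higher and 6 lower, and tag_225 did not pass (edgeR adjusted p = 0.0545). The labels do not say whether a replicate number links the tissues, and the correlation of replicate differences between the tissues was 0.25 at S3 and 0.06 to 0.56 over the stages.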
